A study of Rattus norvegicus with 18 samples.

Results

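Pparg, Cebpa, Cebpb, Cebpd and Srebf1 encode the transcription factors that are best known for driving adipocyte formation. Every probe set that the array annotation ties to a single symbol among these 5 genes was taken, whatever its signal. This gave 8 probe sets of 31256 on the 2 chips: 1 each for Pparg, Cebpa and Cebpb, 3 for Cebpd and 2 for Srebf1. All 8 lie on chip A (RAE230A), and 0 lie on chip B (RAE230B).

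The RNA came from 9 colonies of fetal rat calvaria cells, the cells of the developing skull bones, each grown from 1 sorted cell for 4 weeks at 37 C in 5% CO2. The medium of every colony was a-MEM with ascorbic acid, fetal bovine serum and the additives abbreviated BGP and Dex in the labels. Colonies were typed by the submitters as expressing osteocalcin (3 colonies), osteocalcin together with adipsin ("both", 3 colonies) or neither marker ("neither", 3 colonies). Each colony yielded 100 to 300 cells, whose RNA was amplified and read on 1 array of each chip, 18 arrays in all. Strain and number of animals were not given in the sources used here. Where the colonies of a type came from 1 preparation, the p-values below measure only the spread between colonies of that preparation.

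As background, the mammalian adipogenic programme is usually drawn as a relay. C/EBP beta (Cebpb) and C/EBP delta (Cebpd) appear early, after hormonal induction, and switch on PPAR gamma (Pparg) and C/EBP alpha (Cebpa), which maintain each other and turn on the genes of the mature fat cell. SREBP-1 (Srebf1) is a membrane-bound factor that is released by proteolysis and activates fatty acid synthesis genes. Marrow and calvarial progenitors can form osteoblasts or adipocytes, and PPAR gamma is known to favour the second fate.

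Pparg and Srebf1 are each annotated with 2 transcription starts in RefSeq (assembly GRCr8), and no source used here says from which start the measured transcripts came. The 250 bases before each start are shown because a single level per gene cannot separate the starts. Both strands were searched for the C/EBP-type site TTGCNNAA and for the CCAAT box. A TATA box was taken as the letters TATAAA. For a GC box, bound by Sp1, the search used GGGCGG. The nuclear receptor half-site was spelled AGGTCA, and the core of a sterol element CACCCCAC. Capitals mark the matches, on either strand.
Pparg, first start, chr4:150096808-150097057, plus strand: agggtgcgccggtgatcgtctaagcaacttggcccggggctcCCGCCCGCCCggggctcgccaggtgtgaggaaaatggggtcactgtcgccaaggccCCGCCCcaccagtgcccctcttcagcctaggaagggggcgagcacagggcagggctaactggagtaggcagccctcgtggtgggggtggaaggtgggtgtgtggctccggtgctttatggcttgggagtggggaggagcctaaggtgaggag
Pparg, second start, chr4:150154522-150154771, plus strand: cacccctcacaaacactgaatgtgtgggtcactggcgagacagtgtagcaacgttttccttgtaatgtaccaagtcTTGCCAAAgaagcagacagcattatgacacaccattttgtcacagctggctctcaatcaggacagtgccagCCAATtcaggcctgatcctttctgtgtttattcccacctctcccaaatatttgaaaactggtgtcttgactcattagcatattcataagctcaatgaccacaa
Srebf1, first start, chr10:45529165-45529414, minus strand: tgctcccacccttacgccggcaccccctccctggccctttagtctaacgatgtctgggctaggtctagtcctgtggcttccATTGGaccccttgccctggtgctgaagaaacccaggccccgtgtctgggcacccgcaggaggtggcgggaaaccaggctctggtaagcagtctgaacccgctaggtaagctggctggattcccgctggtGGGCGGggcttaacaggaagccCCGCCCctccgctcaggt
Srebf1, second start, chr10:45519011-45519260, minus strand: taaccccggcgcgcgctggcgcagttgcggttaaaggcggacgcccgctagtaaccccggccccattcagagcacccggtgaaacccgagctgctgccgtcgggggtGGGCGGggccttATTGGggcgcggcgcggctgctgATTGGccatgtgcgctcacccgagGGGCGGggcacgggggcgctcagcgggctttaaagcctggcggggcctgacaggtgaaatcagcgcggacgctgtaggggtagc

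The windows of the 2 Pparg starts differed in make-up. The first held 67.2% G and C and 3 GC boxes, 2 of them overlapping in the capitals. The second held 44.8% G and C, 1 C/EBP-type site 174 bases before the start and 1 CCAAT box 103 bases before it. Both Srebf1 windows held 2 GC boxes, with 1 CCAAT box before the first start and 2 before the second, and their G and C contents were 64.0% and 70.4%. Of all 33469 promoter windows of this length, 9.22% held the C/EBP-type site, 34.0% the CCAAT box, 12.9% the TATA box, 30.5% the GC box, 14.1% the half-site and 2.32% the sterol element core. The median G and C content of those windows was 51.2%. In the single windows of Cebpa and Cebpb the search found a TATA box 35 and 33 bases before the start, and 2 GC boxes each. These matches describe the letters only. Cebpd was not matched to the promoter table.

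Signals below are the deposited MAS5 intensities, a linear measure of probe brightness, with each array rescaled to a 2%-trimmed mean of 1500. A probe set was called near background where its signal topped its array's median on fewer than 3 of the 9 chip A arrays. By that rule 6 of the 8 probe sets passed and 2 were near background. As a yardstick, 35 chip A probe sets of 28 genes of other organs, such as insulin, rhodopsin and protamines, were read the same way. Of their 315 signals 71.7% lay below the array median. By the same rule 13 of these 35 probe sets passed too, so passing does not by itself set a probe set apart from genes of other organs. The yardstick itself moved with colony type: its median signal was 283, 694 and 392 in the osteocalcin colonies, 222, 235 and 385 in the both colonies, and 618, 466 and 696 in the neither colonies. Its 90th percentile was 914, 1377 and 1567 in osteocalcin, 751, 1024 and 972 in both, and 1874.5, 1222 and 3466 in neither colonies. Counts of colonies above that percentile thus set a different bar on each array, the highest in neither III. All 11 yardstick genes past the filter on either chip averaged lower in osteocalcin and in both colonies than in neither colonies. A gene can pass that filter through the neither colonies alone, so this count is no separate support for the shift. The part of the yardstick shift in differences against neither colonies was not tested.

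Facts of the whole series bear on every value. The chip A array of osteocalcin I was deposited with a trimmed mean of 64.4 against 1500 on the others, and was hybridized on another day per the deposited array records. On chip A, fluidics station 1 (the instrument that washes and stains arrays) processed the osteocalcin colonies with both I and II, and station 2 processed both III with the neither colonies. No chip A station held both osteocalcin and neither colonies. Their difference there with station as a block rests on the both colonies, of which 1 was processed on station 2. On chip B, station 2 processed the osteocalcin colonies with neither II and III, and station 1 the both colonies with neither I. Both and osteocalcin colonies thus shared no station on chip B, where their difference with station as a block rests on the neither colonies. The typing markers were near background: Bglap (osteocalcin) and Cfd (adipsin) lay below the array median in 9 of 9 colonies. Cfd was 251, 413 and 522 in the both colonies against 113 to 308 elsewhere. Bglap did not follow the typing: it was 27.1, 53.4 and 55.9 in osteocalcin and 20.9, 21.6 and 44.9 in both colonies. In the neither colonies it was 43.5, 59.5 and 299, the last being its highest signal. Of 7 adipocyte markers 1, Adipoq, passed the filter, and the other 6, Cfd, Fabp4, Lpl, Plin1, Cd36 and Cidec, were near background. Adipoq read 1505, 1289 and 2328 in osteocalcin, 1133, 273 and 1591 in both, and 1438, 1664 and 286 in neither colonies. The summed signal of all 7, Adipoq included, ranged from 2280 to 3687 in osteocalcin, 1686 to 3387 in both and 2312 to 3143 in neither colonies. Of 10 osteoblast markers on the chips 6 passed, Spp1, Col1a1, Col1a2, Sparc, Dmp1 and Pth1r, and Bglap, Alpl, Ibsp and Phex did not, with sums of 186570 to 455800, 236690 to 329980 and 299480 to 366270. The 8 muscle markers, 7 of which passed, summed to 62625 to 243680 in osteocalcin, 11728 to 149040 in both and 25979 to 119830 in neither colonies. Macrophage markers, 7 of 12 past the filter, summed to 9145 to 14502, 5765 to 10301 and 8113 to 9964. Of 7 endothelial markers on the chips 2 passed, and Pecam1, Kdr, Tie1, Vwf and Eng were near background, with sums of 4509 to 5524, 3296 to 6039 and 2702 to 6592. Whether these shifts contribute to the differences below was not tested. Since a colony is a bulk sample, fewer cells of a type and less RNA per cell cannot be told apart.

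**Figure D1:**
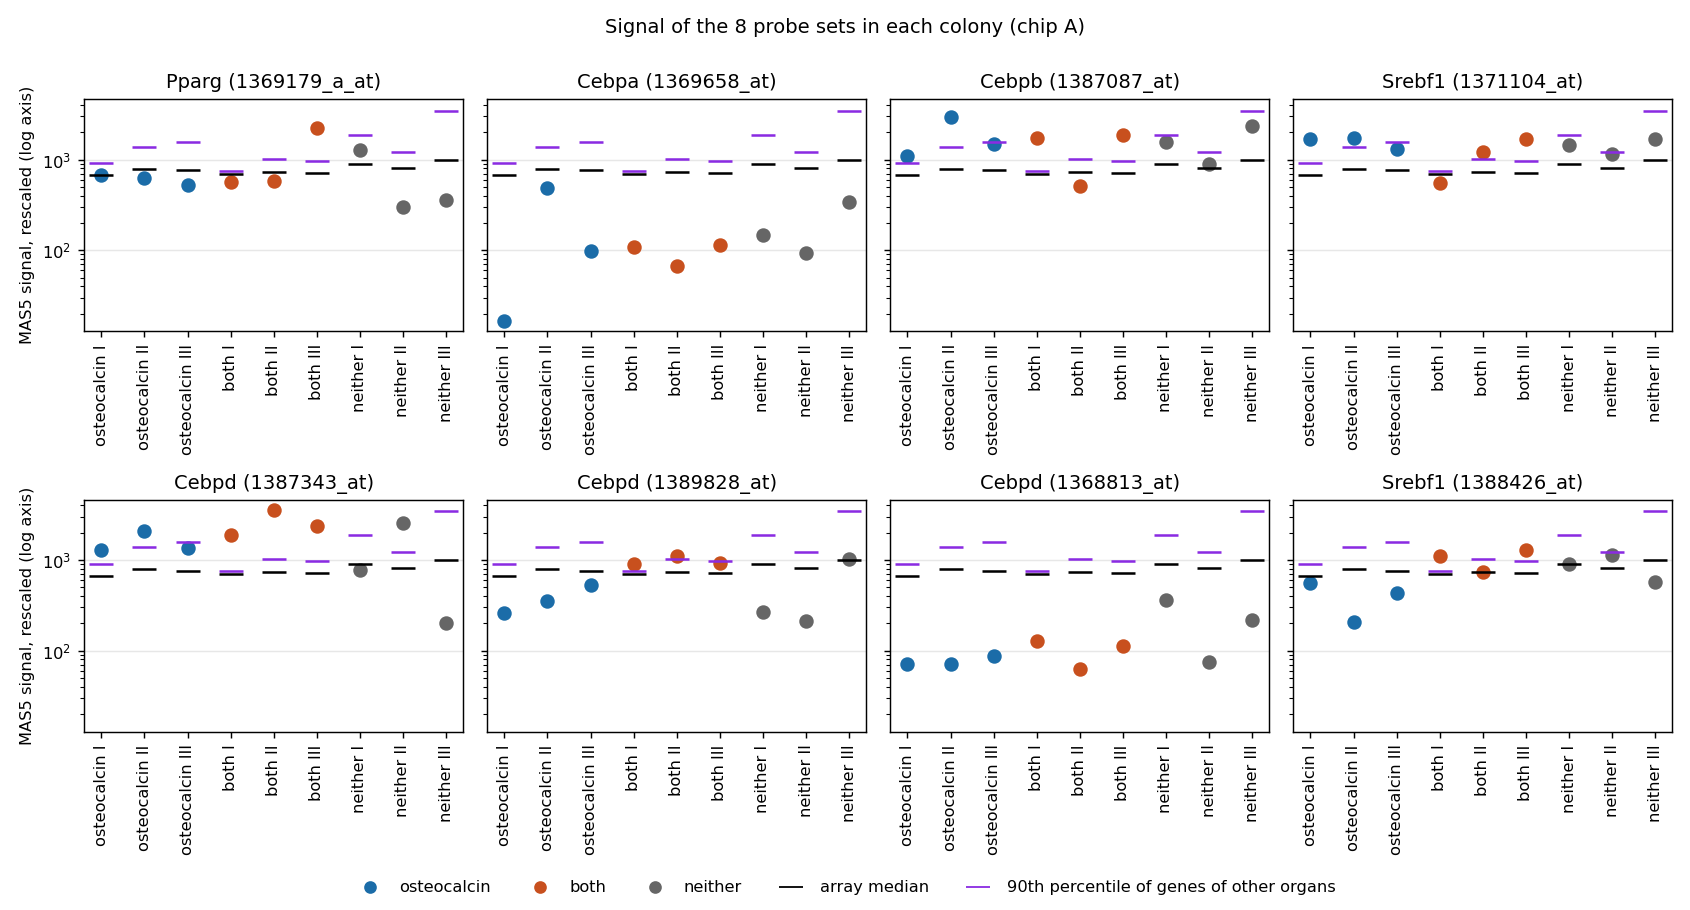
Rescaled MAS5 signal (log axis) of each of the 8 probe sets in each of the 9 colonies, with 1 point per colony coloured by type, the array median as a black dash and the 90th percentile of the genes of other organs as a purple dash. Cebpa and the Cebpd probe set 1368813_at stay below the array median in 9 of 9 colonies, while Cebpb and the Srebf1 probe set 1371104_at lie above it in 8 of 9.

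Of the 5 genes, Cebpa had no probe set past the filter. C/EBP alpha is the factor that sustains PPAR gamma in mature adipocytes and confers insulin sensitivity. Its probe set 1369658_at read 16.7, 480 and 96.9 in osteocalcin I, II and III, 108, 67.3 and 116 in the both colonies, and 147, 92.6 and 339 in the neither colonies. All 9 signals were below the array median, between the 0.722 and the 36.9 percentile of their arrays, and the 3 types overlapped. Both minus osteocalcin was -0.24 (SE 0.362, 95% interval -1.02 to 0.54) in a fit without the filter, on the log2(signal + pseudocount) scale.

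The remaining near-background member was the Cebpd probe set 1368813_at. It read 71.3, 71.1 and 87.6 in osteocalcin, 127, 62.1 and 111 in both, and 363, 75.1 and 216 in neither colonies. The highest readings came from neither I and III, and all 9 lay at or below the 28.9 percentile of their arrays. Osteocalcin minus neither was -0.49 in the same fit (SE 0.268, limma adjusted p = 0.693).

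Pparg, the ligand-activated receptor regarded as the master regulator of adipogenesis, lay close to the array median. Probe set 1369179_a_at read 682, 633 and 531 in osteocalcin I, II and III, 570, 583 and 2205 in both I, II and III, and 1273, 301 and 357 in neither I, II and III. A single colony, both III, stood out at the 81.1 percentile of its array, followed by neither I. Those 2 colonies and osteocalcin I were the 3 above the array median, and both III was the 1 colony above the 90th percentile of the genes of other organs. The 3 osteocalcin colonies lay within the range of the other types.

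Pparg averaged 9.73 ± 0.13 (SD, n = 3) on the log2(signal + pseudocount) scale in osteocalcin, 10.20 ± 0.91 in both and 9.62 ± 0.82 in neither colonies. Limma, fitted on all 19312 probe sets past the filter with Benjamini-Hochberg adjustment over both chips, called 0 probe sets in any of the 3 comparisons (0% of those tested), while 654, 1448 and 1883 had an unadjusted p under 0.05 for both against osteocalcin, osteocalcin against neither and both against neither. The moderated F test over the 3 types also called 0, with 1363 at an unadjusted p under 0.05. With array weights 87, 0 and 10 were called in the 3 comparisons, none of them a probe set of the 5 genes, and 74 by F. For Pparg, both minus osteocalcin was 0.47 (SE 0.539, 95% interval -0.70 to 1.63, limma adjusted p = 1.00). That value rested on both III: without it the difference was -0.062, and without both I it was 0.74. Both minus neither was 0.58 (interval -0.59 to 1.75, limma adjusted p = 0.721), and turned to -0.23 with array weights. It was 0.053 without both III and 1.05 without neither I. Osteocalcin minus neither was 0.11 (interval -1.05 to 1.28), but 1.70 with station as a block, and it was 0.59 without neither I and -0.16 without neither II. The level of Pparg in both III was 1.64 log2 units above the mean of the neither colonies processed on the same station.

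Cebpb encodes C/EBP beta, an early activator of Pparg that also serves in inflammatory and bone cell gene expression. Probe set 1387087_at read 1106, 2917 and 1495 in osteocalcin, 1750, 516 and 1872 in both, and 1547, 902 and 2316 in neither colonies. It lay above the array median in 8 of 9 colonies, the exception being both II, and above the 90th percentile of genes of other organs in 4. Each type held colonies on both sides of 1500, and the ranges overlapped throughout. Both minus osteocalcin was -0.41 (SE 0.482, 95% interval -1.45 to 0.64, limma adjusted p = 1.00), and 0.075 without both II. Both minus neither was -0.24 and osteocalcin minus neither 0.17 with the same SE. The first became 0.24 without both II and 0.041 without neither III, and the second -0.18 without osteocalcin II and -0.14 without neither II. With station as a block the second was 0.95. Type accounted for 8.01% of the variance of Cebpb over the 9 colonies, against a median of 24.4% over all probe sets tested.

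Cebpd encodes C/EBP delta, which in cultured mouse preadipocytes is induced by glucocorticoids. Its brightest probe set, 1387343_at, read 1280, 2079 and 1369 in osteocalcin, 1887, 3540 and 2374 in both, and 776, 2541 and 200 in neither colonies. The 3 both colonies were among the 5 highest, and neither III and neither I were the lowest 2. It lay above the array median in 7 of 9 colonies and above the 90th percentile of genes of other organs in 6. The highest colony was 17.7 times the lowest, and the SD over 9 colonies, 0.929 on the log2 scale, was at the 92.3 percentile of probe sets tested on chip A. Within the neither type alone the SD was 1.33 (n = 3), against 0.33 in osteocalcin and 0.42 in both colonies. Both minus neither was 1.36 (SE 0.545, 95% interval 0.18 to 2.54, unadjusted p = 0.0270, limma adjusted p = 0.470), with overlapping colonies. Leaving out 1 colony at a time moved it between 0.72 (without neither III) and 2.05 (without neither II). Both minus osteocalcin was 0.63 (interval -0.55 to 1.81, limma adjusted p = 1.00), and 0.67 between the colonies of station 1. Osteocalcin minus neither was 0.73 (interval -0.45 to 1.91, limma adjusted p = 0.759). It was 0.086 without neither III and 1.42 without neither II.

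The other Cebpd probe set past the filter, 1389828_at, gave another order. Signals were 258, 352 and 528 in osteocalcin, 905, 1106 and 926 in both, and 266, 215 and 1014 in neither colonies. The both colonies all exceeded the osteocalcin colonies without overlap, and neither III lay among the both colonies. Only 4 of 9 signals, those 4, exceeded the array median, and 2 the 90th percentile of genes of other organs. Both minus osteocalcin was 1.00 (SE 0.495, 95% interval -0.07 to 2.07, limma adjusted p = 1.00), and 1.03 within station 1. Both minus neither was 0.88 (limma adjusted p = 0.569), and 1.34 without neither III. Osteocalcin minus neither was -0.12, 0.35 without that colony and -0.21 with station as a block.

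**Figure D2:**
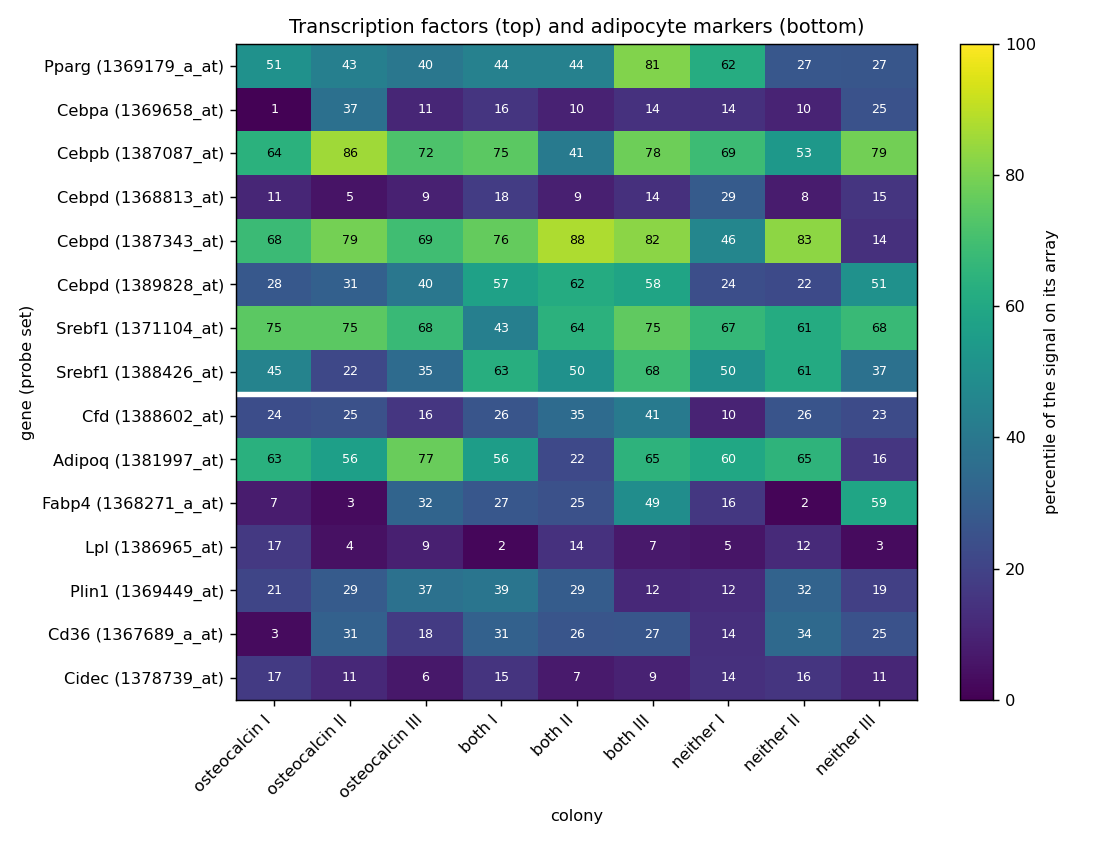
Percentile of the signal on its own array (colour and printed whole numbers, 0 to 100) for the 8 probe sets of the 5 genes, above the white line, and for 1 probe set of each of 7 adipocyte markers, below it, in each of the 9 colonies. Cebpa and 6 of the 7 adipocyte markers are near background by the rule above, while Cebpb, Srebf1 1371104_at and Cebpd 1387343_at exceed the array median in at least 7 colonies.

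Srebf1 encodes SREBP-1. Its probe set 1371104_at read 1708, 1745 and 1306 in osteocalcin, 556, 1222 and 1688 in both, and 1457, 1160 and 1677 in neither colonies. All but both I lay above the array median, 4 colonies exceeded the 90th percentile of genes of other organs, and the types overlapped. Over the 9 colonies this probe set varied least of the 6 past the filter, with an SD of 0.417 on the log2 scale. Both minus osteocalcin was -0.47 (SE 0.372, 95% interval -1.28 to 0.33, limma adjusted p = 1.00), and -0.11 without both I. Both minus neither was -0.34, and 0.018 without that colony. Osteocalcin minus neither was 0.13, and 0.97 with station as a block.

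The second Srebf1 probe set, 1388426_at, separated types where the first did not. Signals were 559, 207 and 430 in osteocalcin, 1093, 745 and 1285 in both, and 908, 1149 and 574 in neither colonies. Each osteocalcin colony was below each colony of the other 2 types, by a narrow margin against neither III. By percentile on its own array, osteocalcin I (44.7) lay above neither III (37.2). The order against the neither colonies thus depends on the rescaling. The array median was exceeded in 5 of 9 colonies, none of them an osteocalcin colony, and the 90th percentile of genes of other organs in 2. Both minus osteocalcin was 1.02 (SE 0.417, 95% interval 0.12 to 1.93, unadjusted p = 0.0291, limma adjusted p = 1.00), and 0.89 within station 1. Osteocalcin minus neither was -0.81 (interval -1.72 to 0.09, limma adjusted p = 0.685), and -0.40 with station as a block. Both minus neither was 0.21 (interval -0.69 to 1.11), and -0.0027 without neither III.

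Type accounted for 66.4% of the variance of Srebf1 1388426_at, with an exact permutation p of 0.0429 over the 280 partitions of 9 colonies into 3 groups of 3, one-sided for large shares (smallest possible p 0.00357). The limma F test gave an adjusted p of 0.707, and under quantile normalization the exact p was 0.075, within a range of 0.0214 to 0.075 over 4 alternatives. The same test, run on all 8 probe sets and not adjusted over them, gave 53.9% and an exact p of 0.175 for Cebpd 1389828_at, 44.5% and 0.129 for 1368813_at, and 40.3% and 0.196 for 1387343_at. Shares for Srebf1 1371104_at, Pparg and Cebpa were 25.5%, 15.7% and 9.73%, with exact permutation p of 0.45, 0.646 and 0.782.

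**Figure D3:**
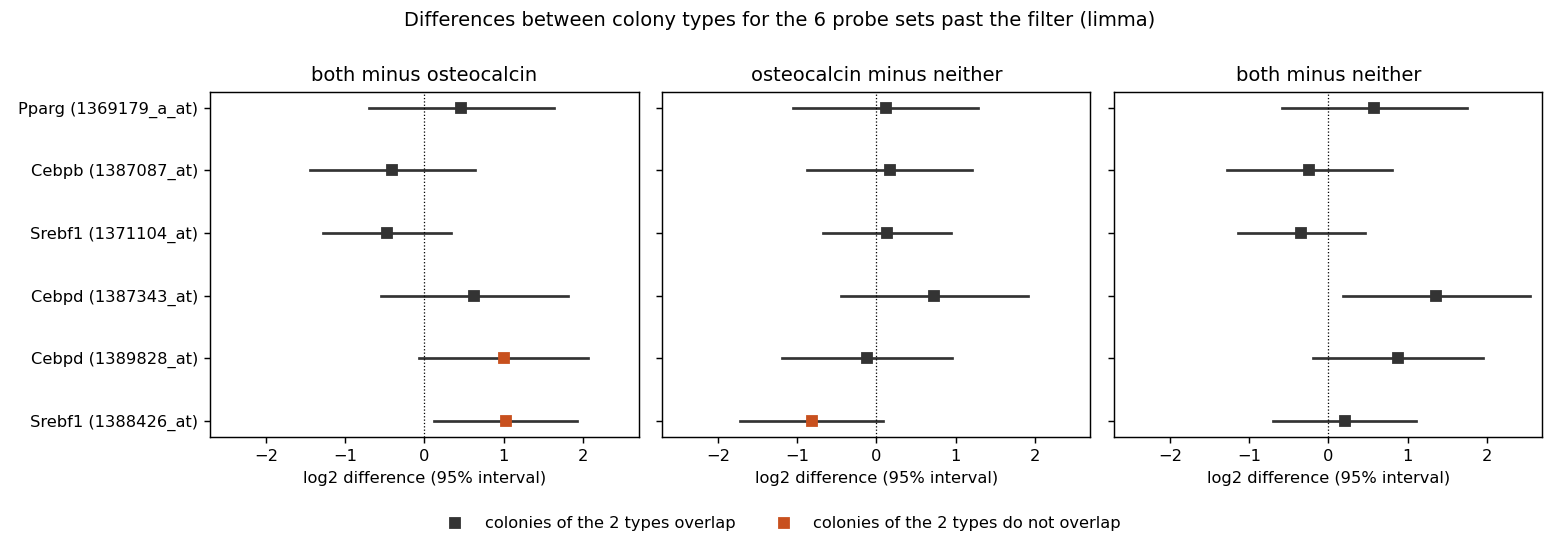
Log2 differences with limma's 95% intervals between colony types, 3 colonies each, for the 6 probe sets past the filter, where orange squares mark comparisons whose colonies do not overlap. The interval excludes 0 for Srebf1 1388426_at in both minus osteocalcin and for Cebpd 1387343_at in both minus neither, before adjustment for 19312 tests.

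Counted over the 6 probe sets past the filter, colonies did not overlap for 2 between both and osteocalcin (Cebpd 1389828_at and Srebf1 1388426_at). Of all probe sets tested 10.1% did not. The 2 probe sets lay below the array median in all osteocalcin colonies, and so passed the filter through the other types alone. Their lack of overlap is therefore no separate support for a difference between types. Between osteocalcin and neither the count was 1 of 6 (Srebf1 1388426_at, whose colonies overlapped by percentile on the array), with 12.2% over all probe sets tested. Between both and neither it was 0 of 6, with 14.6% over all. The 2 near-background probe sets overlapped in each comparison. Since 3 colonies against 3 cannot give an exact permutation p under 0.1, no such test was run on single pairs.

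Probe sets of the same gene put the colonies in different orders. The correlation between the 2 Cebpd probe sets past the filter was r = -0.01 (exact permutation p = 0.979, rho = 0.12, n = 9 colonies), and 0.45 without neither I and III. After subtracting type means it was -0.72. Between the 2 Srebf1 probe sets it was r = -0.44 (exact permutation p = 0.238, rho = -0.48), -0.14 without both I and neither II, and -0.19 after subtracting type means. A level of Cebpd or Srebf1 is therefore given per probe set. Which transcripts a probe set reads was not given in the sources used here, and the part of the alternative Srebf1 starts in this was not tested.

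**Figure D4:**
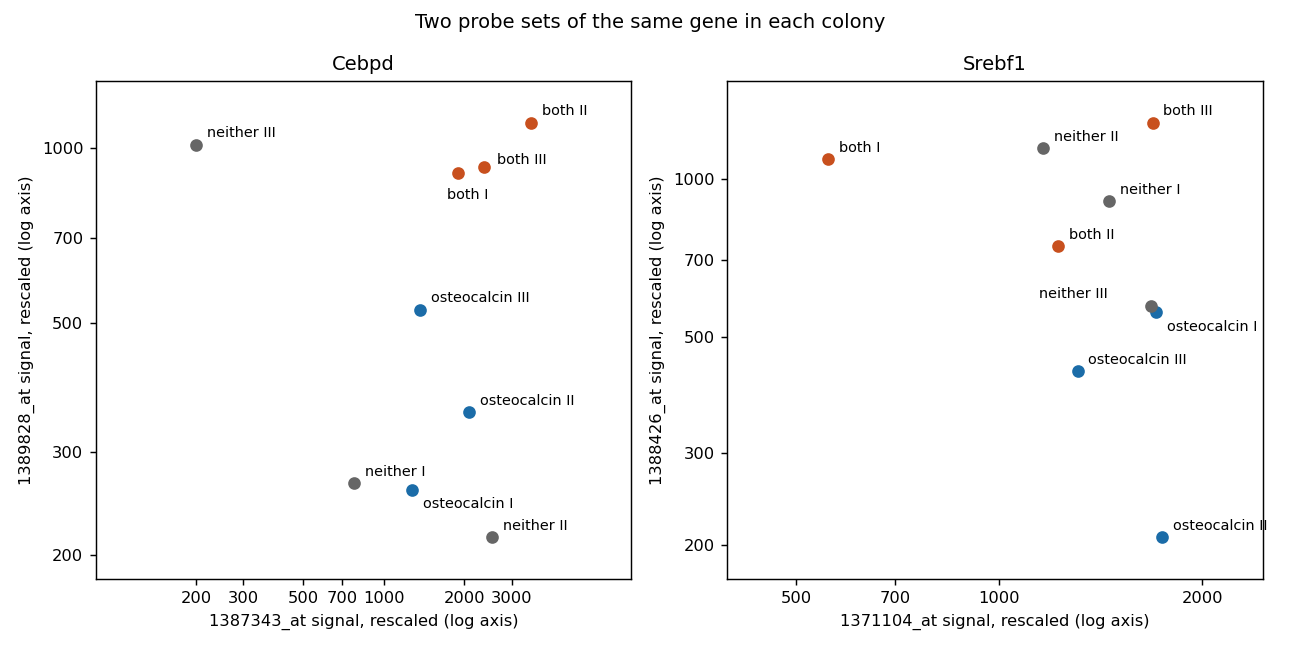
Rescaled signal of 2 probe sets of Cebpd (left) and of Srebf1 (right) in each of the 9 colonies, on log axes, coloured by type (blue osteocalcin, orange both, grey neither). For Cebpd, neither III is lowest on 1387343_at (200) but exceeded by only 1 colony on 1389828_at (1014), and for Srebf1, both I is lowest on 1371104_at (556) but exceeded by only 2 colonies on 1388426_at (1093).

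Between genes, 1 probe set each was compared for the 4 genes past the filter, always the brightest on chip A. Among the 6 pairs the widest correlation was between Cebpb and Cebpd, r = -0.48 (rho = -0.40, exact permutation p = 0.188, adjusted p = 0.868 over the 12 correlations computed), and -0.56 without osteocalcin II and both II. Pparg correlated with Srebf1 at r = 0.28 (rho = 0.55), with Cebpb at 0.19 and with Cebpd at 0.15, and these r were 0.031, 0.033 and 0.32 without both III and neither I. Cebpb and Srebf1 had r = 0.22, which was 0.75 without both I. Cebpd and Srebf1 had r = -0.29. Of the 4 correlations with Cfd the widest was that of Cebpd, r = 0.39 (rho = 0.55, exact permutation p = 0.302), and 0.79 without neither I and III, although Cfd itself was near background. After subtracting type means, r with Cfd was 0.13 for Cebpd and 0.66 for Srebf1, against 0.06 for Srebf1 before. The adjusted p was at least 0.868 for all 12. The stations held 5 and 4 colonies, fewer than the 6 set as a minimum, and no correlation was computed within them.

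The chip A genes whose profile over the 9 colonies was most like a member's were ranked by Pearson's r of log2 levels, as a description. For Pparg they were Ogfr (r = 0.93), Tom1 (0.92) and Mtarc2 (0.89), and Ogfr read 2482 in both III and 1004 in neither I against 232 to 891 elsewhere. For Cebpb they were Emc8, Rab11b and Arvcf, with r of 0.96, 0.96 and 0.94. Cebpd 1387343_at was most like Lgals3bp (0.97), Tcf25 (0.96) and Rtl6 (0.95), all lowest in neither III and highest in both II. Srebf1 1371104_at was most like Ramac (0.91), Fam32a (0.90) and Polr2k (0.89), all lowest in both I. These are the highest of about 7940 correlations each, over 9 points.

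PPAR gamma acts as a heterodimer with retinoid X receptors and exchanges corepressors for coactivators. Of 16 such partners 13 passed the filter, and limma called 0 of them in each comparison. The main partner genes Rxra and Rxrb were near background, while Rxrg passed the filter and read 319 to 1815 over the 9 colonies. The median difference of the 13 was 0.16 for both minus osteocalcin, -0.15 for osteocalcin minus neither and -0.08 for both minus neither, against -0.01, 0.03 and 0.01 over all probe sets tested. The corepressor gene Ncor1 read 1484, 641 and 837 in osteocalcin, 982, 1169 and 832 in both, and 2402, 1879 and 2183 in neither colonies. The neither colonies lay above all 6 others (osteocalcin minus neither -1.02, SE 0.344, limma adjusted p = 0.611). Hdac3, the deacetylase bound by that corepressor, went the other way, with 330, 1004 and 444 in neither against 2104, 1747 and 3261 in both colonies (both minus neither 1.69, SE 0.431, limma adjusted p = 0.344). The coactivator gene Ppargc1b read 2636 to 3487 in the both colonies and 409 to 2602 in the osteocalcin colonies (both minus osteocalcin 1.08, limma adjusted p = 1.00). Its probe set lies on chip B, where both and osteocalcin colonies shared no station.

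Of 21 other genes known to promote adipogenesis 14 passed the filter, and 0 were called. Their median differences were 0.12, -0.12 and -0.05 in the same order. Klf15, a Kruppel-like factor that supports Pparg expression, was 0.71 higher on the log2 scale in both than in osteocalcin colonies (SE 0.564, limma adjusted p = 1.00). Ppard, the related receptor PPAR delta, was -0.67 in both minus neither (limma adjusted p = 0.511), without overlap. Stat5a, a signal transducer that promotes fat cell formation in culture, was -0.71 in osteocalcin minus neither (limma adjusted p = 0.680), also without overlap.

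Genes listed here as holding adipogenesis back gave 17 of 25 past the filter and 0 called. Their median difference was 0.41 for both minus osteocalcin, with 11 of 17 higher, -0.27 for osteocalcin minus neither and -0.02 for both minus neither. In the first of these comparisons 9 of 14 promoting genes and 9 of 13 PPAR gamma partners were higher too. Gata3, a GATA factor that represses Pparg in preadipocytes, read 1767, 1372 and 3859 in neither colonies and 151, 566 and 188 in both colonies (both minus neither -2.21, SE 0.586, limma adjusted p = 0.392). The osteocalcin colonies spanned that gap, from 141 to 1610. Dlk1, the preadipocyte factor Pref-1, read 988, 964 and 1441 in neither and 799, 392 and 141 in osteocalcin colonies (osteocalcin minus neither -1.11, limma adjusted p = 0.621). Tcf7l1, a transcription factor of the Wnt pathway, was 0.96 higher in both than in osteocalcin colonies without overlap (limma adjusted p = 1.00). It was counted in this list, but whether it holds adipogenesis back was not tested.

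Of 25 genes of the adipocyte itself, most of them known PPAR gamma or C/EBP alpha targets, 23 were on the chips and 14 passed the filter. The 9 near background were Fabp4, Lpl, Cd36, Plin1, Cfd, Cidec, Cidea, Lep and Gpd1. Limma called 0 of the 14, and their median differences were -0.07, 0.08 and 0.16. Between osteocalcin and neither colonies 5 of the 14 did not overlap, against 12.2% of all probe sets tested. Pnpla2, Dgat1 and Plin4 were higher in osteocalcin colonies, and Aqp7 and Pck1 were lower. Pnpla2, the adipose triglyceride lipase gene, read 201, 307 and 430 in neither colonies, 647, 939 and 1273 in osteocalcin and 917, 578 and 1111 in both (osteocalcin minus neither 1.10, SE 0.424, limma adjusted p = 0.621). Dgat1, which makes triglyceride, had its 3 lowest signals in the neither colonies, 1281, 583 and 1345 (both minus neither 1.00, limma adjusted p = 0.511). Plin4, Aqp7, Pck1 and Dgat2 are named here after their values were seen. Aqp7, a glycerol channel gene, read 732, 1101 and 1963 in neither and 528, 664 and 290.5 in osteocalcin colonies (osteocalcin minus neither -0.99, limma adjusted p = 0.649). Pck1, which encodes the cytosolic phosphoenolpyruvate carboxykinase, was -0.61 in the same comparison (limma adjusted p = 0.711). Both minus neither was -0.76 for Pck1 (limma adjusted p = 0.513) and -0.60 for Dgat2, another triglyceride synthesis gene (limma adjusted p = 0.559), also without overlap.

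SREBP-1 is known to act on lipogenic genes, and 13 of 18 listed passed the filter with 0 called. The median differences were 0.07, 0.12 and 0.26. Scd2, a stearoyl-CoA desaturase, read 2554, 4313 and 1177 in both against 1019, 693 and 1064 in neither colonies (both minus neither 1.19, SE 0.423, limma adjusted p = 0.438). Fads2, another desaturase gene, ran opposite, with 219, 577 and 512 in both against 1105, 1155 and 1874 in neither colonies (-1.27, SE 0.405, limma adjusted p = 0.429). All 5 genes that retain or cleave the SREBP precursor passed the filter, and 0 were called. Insig1, which holds the precursor in the endoplasmic reticulum and is itself an SREBP target, read 1728, 1765 and 1279 in both I, both II and neither II, and 49.0 to 173 in the other 6. The site-1 protease gene Mbtps1 read 4017, 3874 and 2881 in both and 2314, 1578 and 2223 in osteocalcin colonies (0.75, SE 0.344, limma adjusted p = 1.00).

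Genes known to be induced by glucocorticoids, as Cebpd is, gave 11 of 15 past the filter and 0 called. Their median differences were 0.47, 0.24 and 0.55. Tsc22d3, a glucocorticoid-induced repressor of Pparg also listed as holding adipogenesis back, read 572 in neither III against 2958 to 7744 in the other 8 colonies (both minus neither 1.54, SE 0.572, limma adjusted p = 0.448). Mt2A, a metallothionein, was 36318, 28133 and 17048 in both, 4396, 19483 and 3440 in osteocalcin, and 1210, 47178 and 3551 in neither colonies, where neither II was high as for Cebpd 1387343_at (both minus neither 2.04, SE 1.00, limma adjusted p = 0.531). Fkbp5 had no such order, with its highest signal, 2440, in neither III.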

How the data were processed

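MAS5 signal intensities, linear and 1 per probe set, are what the authors deposited (submitters' processing notes, file headers; no MAS5 version was found in the sources used here). Each of the 18 arrays was rescaled to a 2%-trimmed mean of 1500, then taken as log2(signal + pseudocount), where the pseudocount was the median over 9 arrays of the 25th percentile (239 on chip A, 336 on chip B). Differences on this scale understate changes of dim probe sets.

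Probe sets above the array median on at least 3 of 9 arrays were kept (9425 and 9887). Limma 3.58.1 in R 4.3.3 fitted 3 type means per chip with eBayes and an intensity trend, with Benjamini-Hochberg adjustment over 19312 probe sets at 0.05. The fit was tested on simulated data. Exact permutation tests used Python 3.11.15 with scipy 1.17.1. Array number limits the precision; arrays give no read depth.

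Gene names came from the platform annotation (12789 and 7570 probe sets with 1 symbol, 312 and 100 with several, 2822 and 7663 with none). All probe sets of the 5 genes are named, then up to 2 genes per list and comparison with the smallest p and the 3 genes most like each member. A gene with several probe sets past the filter was read by its brightest, on chip A where possible. Runx2 and Sp7 were not analysed here. The members, lists and tests were chosen with earlier results of these data known. The main fit treated colonies numbered I, II and III as unpaired across types. On chip A, correlations of same-numbered deviations ran from -0.15 to 0.32, and those of differently numbered ones from -0.38 to 0.27.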

Additional observations from a re-analysis of the deposited data

How the results depend on the processing

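None of the probe sets of the 5 genes passed the adjusted threshold of 0.05 in 333 planned refits of 18 differences (adjusted p 0.0991 to 1.00), and 26 changed sign. For both minus osteocalcin, Pparg was -0.062 with a station block and within station 1 (an alternative chosen after seeing the data), and -0.062 to 0.74 without 1 colony, the lowest without both III. Cebpb was 0.34 with signals as deposited and -0.67 to 0.075 without 1 colony, and Srebf1 1371104_at was 0.41 with signals as deposited. For osteocalcin minus neither, signals as deposited gave -0.48 for Pparg, -0.75 for Srebf1 1371104_at, -0.58 for Cebpb and -0.060 for Cebpd 1387343_at, where osteocalcin I keeps its low scale. A station block, which rests on the both colonies, gave 1.70 for Pparg, 0.97 for Srebf1 1371104_at, 0.95 for Cebpb, 0.61 for Cebpd 1387343_at, -0.40 for Srebf1 1388426_at and -0.21 for Cebpd 1389828_at. Array weights gave -0.29 for Pparg and 0.20 for Cebpd 1389828_at, which was 0.049 with quantile normalization. Leaving out 1 colony gave -0.16 to 0.59 for Pparg, -0.18 to 0.45 for Cebpb, -0.39 to 0.35 for Cebpd 1389828_at and 0.086 to 1.42 for Cebpd 1387343_at. For both minus neither, array weights gave -0.23 for Pparg and 0.050 for Cebpb, a station block (and station 2 alone) 0.22 for Srebf1 1371104_at and 0.28 for Cebpb, and leaving out 1 colony 0.053 to 1.05 for Pparg, -0.62 to 0.018 for Srebf1 1371104_at, -0.54 to 0.24 for Cebpb and -0.0027 to 0.39 for Srebf1 1388426_at. The cause was not tested except where named. Cebpd 1387343_at and 1389828_at in both comparisons with the both colonies, and Srebf1 1388426_at against osteocalcin in both of its comparisons, kept their direction in all of these refits. Some of the 333 refits cannot move a difference and so could not change its sign. These are a changed filter, no intensity trend, the replicate block, and leaving out a colony outside the comparison. For both minus osteocalcin, the station block and leaving out both III gave the same estimate, as did station 1 alone. The block and the left-out colony are counted apart among the 333 refits and 26 sign changes, but are not separate checks. The filter at 6 of 9 arrays left no value for Pparg, Cebpd 1389828_at and Srebf1 1388426_at, which fail it.

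Signal over background limits Cebpa and Cebpd 1368813_at, below the array median on 9 of 9 arrays.

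Counts of calls over all probe sets, 0 as reported, became 1 for both against osteocalcin with signals as deposited, 2 with the pseudocount at the array median, 87 with array weights and 2 with the replicate number as a block, and 0 to 1 without 1 colony. For both against neither they became 1 with the higher pseudocount, 10 with array weights and 0 to 3 without 1 colony. For any difference they became 1 as deposited, 2 with the higher pseudocount, 74 with array weights, 1 with the replicate block and 0 to 1 without 1 colony. Osteocalcin against neither stayed at 0 in all alternatives run. The share of variance between types of Srebf1 1388426_at was 59.5% with quantile normalization (exact permutation p = 0.075). With signals as deposited, r was 0.63 for Pparg and Cebpb, 0.69 for Pparg and Srebf1, 0.34 for Cebpb and Cebpd, 0.80 for Cebpb and Srebf1 and 0.51 for Cebpd and Srebf1, where the low array is shared by both genes. Quantile normalization gave -0.068 for Cebpd and Srebf1, and leaving out 1 colony gave 0.078 to 0.75 for Cebpb and Srebf1.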
